A study of Mus musculus with 18 samples.

Results

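Quadriceps muscle and white adipose tissue were compared within 3 obese mice that received only vehicle. Their 6 libraries, of 18 in the series, were chosen by the vehicle label and matched by the mouse code, so that each mouse gave 1 muscle and 1 adipose library. All gene symbols of the deposited table were read (33641), and the 13525 with 1 TPM or more in at least 3 of the 6 libraries were compared. TPM is the abundance of a transcript per unit of its length, scaled to a fixed sum in every library.

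The mice were wild-type males of the inbred strain DBA/2J, with an age given as about 20 weeks. They were fed a high-fat diet for 12 weeks before the injections and throughout them. The time point of that age is not given here, and the 12 weeks of diet and 12 weeks of injections together exceed it. Vehicle went into the peritoneum daily for 12 weeks, and both tissues were taken 24 hours after the last injection. The vehicle was PBS with DMSO, the solvents of the prednisone given to the other 6 mice of the series. No mice on ordinary chow and no uninjected mice were analysed here, so the diet and the injections are shared by both tissues and their effects were not tested. The labels do not name the depot of the white fat.

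Skeletal muscle is built of fused fibres packed with sarcomeres, which shorten when calcium leaves the sarcoplasmic reticulum and which are fed by glycogen, glucose and fatty acids. White adipose tissue stores triglyceride in the large droplet of each adipocyte, makes fat from glucose, releases fatty acids on demand and secretes hormones such as leptin and adiponectin. In obesity the fat also takes in macrophages, and both tissues hold vessels, nerves and connective tissue cells.

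The defining markers matched the tissue labels. The summed level of 7 muscle fibre markers was 50290 to 54323 TPM in muscle and 92.9 to 136 TPM in adipose tissue. That of 6 adipocyte markers was 387 to 534 TPM in muscle and 11592 to 13307 TPM in adipose tissue. Both lists separated the tissues in every mouse. Markers of the epididymis, which lies next to a common fat depot of male mice, were near 0 in both tissues, at 0.115 to 0.212 TPM in muscle and 0 to 0.389 TPM in adipose tissue over 7 genes.

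Libraries of a tissue correlated across genes at 0.989 to 0.992 in muscle and 0.986 to 0.990 in adipose tissue, against 0.704 to 0.712 between tissues (Pearson's r of log2 values over all tested genes). At 1 TPM or more there were 11879 to 11957 genes in muscle and 13471 to 13530 in adipose tissue. The mitochondrial genome supplied between 27.6% and 31.3% of all TPM in muscle, against 12.9% to 13.5% in fat. The third library lay between the others for 42.0% of genes averaging over 10 TPM in muscle and for 53.2% in adipose tissue, where a share of 1 in 3 would put the libraries on a par. The labels give no reason for this. TPM keeps no read counts, so depth is unknown and the spread between the 3 mice is the only measure of error.

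By TPM, 1881 genes (13.9%) were higher in muscle and 9995 (73.9%) were lower, each at an adjusted p under 0.05 by limma with the mouse as a block, so that 87.8% were called in 1 direction or the other. Without the third mouse 1723 were higher and 9413 lower. The median log2 difference of all genes, muscle minus adipose tissue, was -0.93. In a unit with a fixed sum, abundant genes leave less for the rest, and with the mitochondrial genome left out that median was -0.71. TMM scaling brings the trimmed mean of gene ratios to the same level in all libraries, and the median was then 0.01, with 5222 genes (38.6%) higher and 5098 (37.7%) lower. Of all calls 84.2% were lower by TPM and 49.4% were lower under TMM scaling. The 1881 genes were higher and the 5098 genes lower under both scalings, while 1931 (14.3%) were lower by TPM and higher under TMM scaling. Neither scaling is known to be the true one, so a direction that depends on it is named as such. Log2 differences are on the log2(TPM + 1) scale, which understates the change of low genes, and are by TPM unless TMM scaling is named. The groups did not overlap for 88.6% of genes, so a lack of overlap sets few genes apart here.

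**Figure D1:**
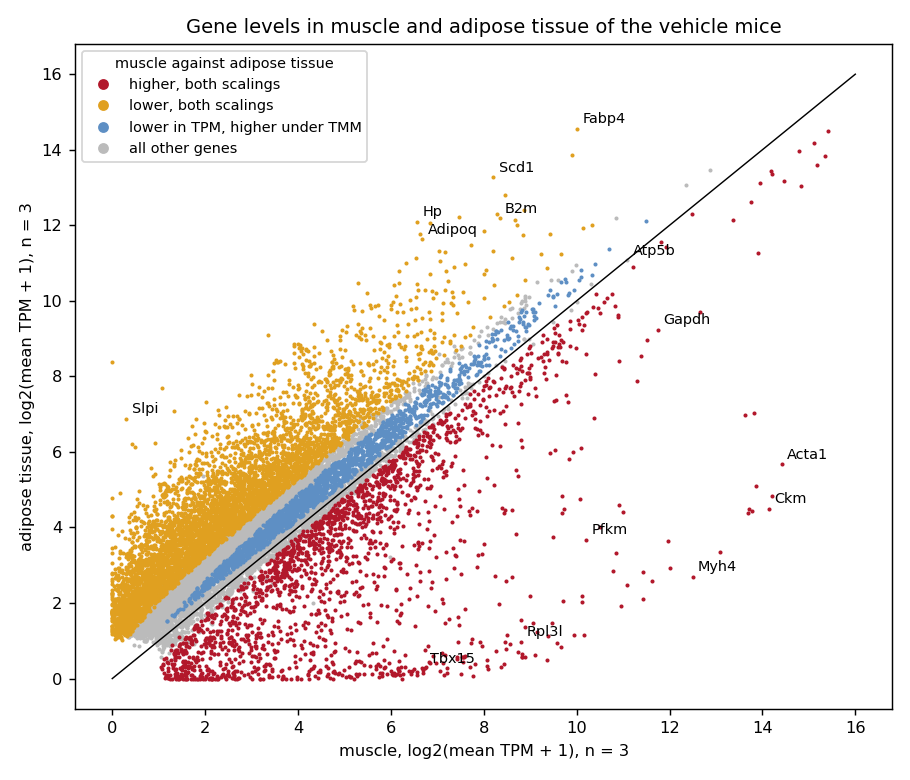
Mean level of each of 13525 genes in muscle (horizontal) and adipose tissue (vertical), both as log2(mean TPM + 1) over 3 vehicle mice; the black line marks equal TPM. Red genes (1881) lie below the line and yellow genes (5098) well above it, while the blue band (1931) lies just above the line, where TPM and TMM scaling give opposite calls.

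Genes of the contractile apparatus stood farthest apart. All 13 fast-fibre genes and all 23 other sarcomere genes tested were higher in muscle under both scalings, with median log2 differences of 8.81 and 6.95. Muscle libraries alone can meet the filter, which favours this direction. With 1 TPM required in all 6 libraries, 10 fast-fibre and 11 sarcomere genes were left, all higher by TPM. Myh4, the fastest myosin heavy chain of mouse limb muscle, gave 6304, 5171 and 5882 TPM in muscle, against 7.44, 3.99 and 5.01 TPM in adipose tissue. Its log2 difference was 9.83 ± 0.10 (SE, adjusted p = 6.5e-08), the largest of the named genes. Acta1, skeletal muscle actin, had 23436, 21290 and 20876 TPM in muscle, against 57.7, 44.3 and 48.1 TPM in adipose tissue. Every muscle library lay far above every adipose library for both genes.

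Fast myosins were the major ones in this muscle. Myh1 reached 691 to 831 TPM and Myh2, the myosin of fast oxidative fibres, 128 to 169 TPM in muscle. Myh7, the slow myosin, was at 0.185 to 0.442 TPM in muscle and 0 to 0.0853 TPM in adipose tissue, under the filter. Of 11 slow-fibre genes, 9 were tested, 6 of them higher in muscle and 2 lower under both scalings. With 1 TPM required in all 6 libraries, 3 were tested, none higher and 2 lower by TPM, so the number higher depends on the filter. Mybpc1, a myosin binding protein first described in slow fibres, was the highest at 384, 462 and 424 TPM in muscle, against 0.745, 0.469 and 0.631 TPM in adipose tissue. Those lower were Atp2a2, the calcium pump of slow fibres and of many other cells, and Tpm3, a tropomyosin made in most cells. Atp2a2 gave 12.4, 13.8 and 12.4 TPM in muscle, against 46.4, 56.8 and 53.9 TPM in adipose tissue, with no overlap.

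The machinery that couples excitation to contraction followed. All 13 tested genes of calcium release were higher in muscle under both scalings, with a median log2 difference of 6.91. Only 6 of them had 1 TPM or more in all 6 libraries, and these were all higher by TPM. The others met the filter without every adipose library, which favours this direction. Ryr1, the release channel of the reticulum, gave 182, 163 and 168 TPM in muscle, against 0.614, 0.329 and 0.366 TPM in adipose tissue. Cacna1s, the voltage sensor that opens it, gave 258, 230 and 234 TPM in muscle, against 1.51, 0.341 and 1.05 TPM in adipose tissue. Neither gene overlapped between tissues. Atp2a1, which pumps calcium back, differed by 9.75 ± 0.08 (SE). Asph differed least, by 1.66 ± 0.09, and its transcripts differed between tissues as described further on. Sln, which encodes sarcolipin, an inhibitor of that pump, was at 0.678 to 0.949 TPM in muscle and at 0 in every adipose library, under the filter.

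Transcription factors of the muscle lineage were also set apart, at far lower levels. Of 18 listed, 15 were tested and all 15 were higher in muscle under both scalings, with a median log2 difference of 3.17. Only 6 had 1 TPM or more in all 6 libraries, and these were all higher by TPM. Myod1, which can turn other cells into muscle, gave 41.2, 32.5 and 34.6 TPM in muscle and was listed at 0 in all adipose libraries. Myf6, the member of that family most active in mature fibres, gave 84.1, 99.3 and 95.3 TPM in muscle, against 0.104, 0.104 and 0 TPM in adipose tissue. The Mef2 factors, which many tissues use, differed less, by 3.53 for Mef2c, 0.96 for Mef2d and 0.65 for Mef2a. Pax7 and Myf5, which mark satellite cells, the stem cells of muscle, stayed under the filter at 0.470 to 0.681 and 0.792 to 1.75 TPM in muscle and were listed at 0 in adipose tissue. Of 7 satellite cell markers 4 were tested, and by TPM 2 were higher and 2 lower in muscle, with 3 higher and 1, Vcam1, which endothelium also makes, lower under TMM scaling. Their summed level was 29.8 to 32.6 TPM in muscle and 33.3 to 33.9 TPM in adipose tissue.

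Glycolytic genes divided by isozyme. Of 23 genes tested, 12 were higher and 8 lower in muscle under both scalings, against 13.9% and 37.7% of all genes. The number lower is thus near the share of all genes. Pfkm, the muscle form of the enzyme that commits glucose to glycolysis, gave 1176, 1201 and 1168 TPM in muscle, against 11.5, 11.4 and 12.4 TPM in adipose tissue. Pfkp and Pfkl, its counterparts in other tissues, were lower, at 4.88 to 7.66 and 8.83 to 12.1 TPM in muscle, against 53.5 to 57.5 and 74.3 to 78.4 TPM in adipose tissue. Pgam2 and Eno3, muscle forms of later steps, were higher by 9.11 and 8.33, while Pgam1 and Eno1 were lower by 2.97 and 1.56. Aldoa, which both tissues use, was 14589 to 16265 TPM in muscle and 2425 to 2457 TPM in adipose tissue.

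Glycogen genes divided in the same manner, with 11 of 18 higher in muscle and 6 lower under both scalings. Of all genes 13.9% were higher and 37.7% lower under both, so the number lower is again near that share. Pygm, muscle glycogen phosphorylase, gave 2966, 2573 and 2693 TPM in muscle, against 7.09, 4.54 and 6.67 TPM in adipose tissue. Pygl, the liver form, gave 7.37, 5.26 and 6.14 TPM in muscle, against 117, 151 and 139 TPM in adipose tissue. The phosphorylase kinase subunits Phka1 and Phkg1 were higher, and Phka2 and Phkg2 lower, without overlap in any of them. Ppp1r3a and Ppp1r3c, which bring a phosphatase to glycogen, were higher, and Ppp1r3b was lower. Gys1, muscle glycogen synthase, was higher by 1.70, and Gys2, the synthase of liver and fat, lower by 3.77.

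The share of 1 form within a pair of related genes does not depend on how a library was scaled. For 40 pairs with a form that textbooks place in muscle, that form's share of the pair's TPM was higher in every muscle library than in any adipose library in 38. The pairs were chosen for this direction, so the sizes are the information, and 3 libraries against 3 cannot give a two-sided exact permutation p below 0.1. In 29 pairs a different form led in each tissue. Ckm held 99.9% or more of the transcripts of cytosolic creatine kinase, which buffers ATP, in muscle and 18.9% to 35.8% in adipose tissue, where Ckb made up the rest. Pgam2, phosphoglycerate mutase, held 99.1% in each muscle library and 1.14% to 2.87% in adipose tissue.

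Some pairs encode mitochondrial proteins or parts of the translation machinery. Cox6a2, a heart and muscle subunit of cytochrome c oxidase, held 92.8% to 93.9% of its pair in muscle and 0.326% to 0.645% in adipose tissue. Slc25a4, an ADP/ATP carrier of the inner mitochondrial membrane, held 97.9% to 98.0% in muscle and 34.6% to 36.4% in adipose tissue. Eef1a2, an elongation factor of muscle and nerve, held 61.8% to 65.3% in muscle and 0.0159% to 0.0332% in adipose tissue. Rpl3l, which can take the place of Rpl3 in muscle ribosomes, held 97.0% to 97.7% in muscle and 1.09% to 1.65% in adipose tissue. Each of these forms was the major one in muscle and a minor one in fat.

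Some pairs kept their leading form. Slc2a4, the insulin-regulated glucose transporter, held 97.6% to 98.5% of its pair with Slc2a1 in muscle and 93.0% to 93.8% in adipose tissue. Plin1, the droplet coat of adipocytes, outweighed Plin5, the coat of oxidative cells, in both tissues, though Plin5's share was 28.6% to 38.8% in muscle and 2.57% to 3.96% in adipose tissue. The exceptions to the direction were Ldha with Ldhb and Vegfb with Vegfa. Ldha, the lactate dehydrogenase subunit of fast muscle, held 89.6% to 92.2% in muscle and 91.9% to 92.3% in adipose tissue, with overlap. Vegfb held 45.6% to 51.2% in muscle and 58.4% to 62.2% in adipose tissue, the reverse of the direction chosen.

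**Figure D2:**
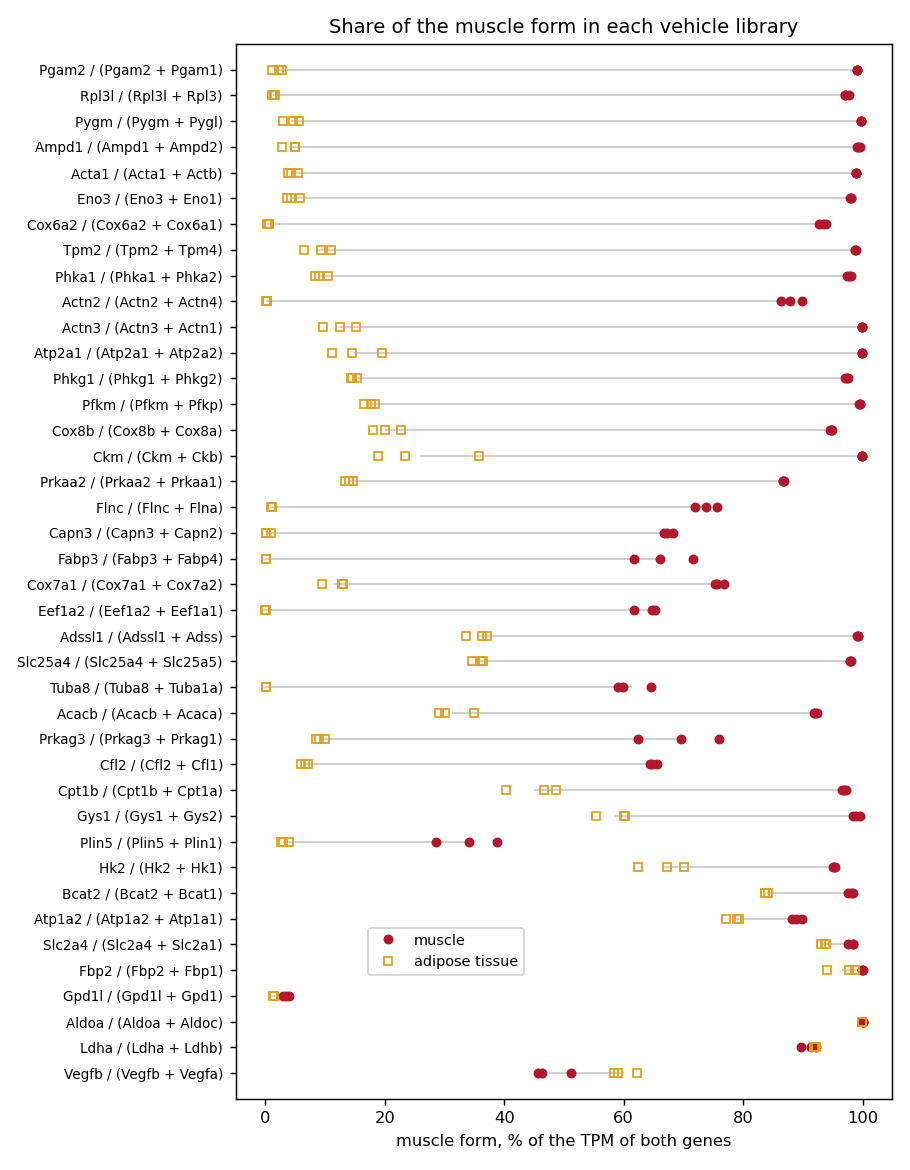
Share of the muscle form in the TPM of each of 40 pairs of related genes, in percent, with filled circles for the 3 muscle libraries and open squares for the 3 adipose libraries of vehicle mice; a grey line joins the tissue means. Pairs run from the largest to the smallest difference between tissues, from Pgam2 with Pgam1 at the top to Vegfb with Vegfa, where adipose libraries lie higher.

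Genes of oxidative phosphorylation were mostly higher in muscle, by small amounts. Of 72 nuclear genes of the respiratory chain and ATP synthase tested, 62 were higher and 4 lower in muscle by TPM, with a median log2 difference of 0.68. Under TMM scaling 71 were higher and none lower, and of the 4 that were lower by TPM, Ndufc2, Ndufa7 and Ndufs5 were then higher and Ndufb3 was not called. The TPM call of Ndufs5 was lost with any 1 mouse left out (adjusted p = 0.061 to 0.14). Atp5g1, one of several genes for the rotor subunit of ATP synthase, differed most, with 1344, 1332 and 1292 TPM in muscle, against 119, 111 and 122 TPM in adipose tissue. Ndufs7 and Ndufa5, subunits of complex I, were each higher by 1.41. Atp5b, the catalytic subunit of that synthase, was close to equal by TPM, at 2191, 2191 and 2169 TPM in muscle and 2240, 2128 and 2101 TPM in adipose tissue, overlapping, and higher by 1.15 under TMM scaling.

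The 13 protein genes of the mitochondrial genome were all higher in muscle by TPM and TMM scaling, with a median log2 difference of 0.94, while under quantile normalization 6 were higher and 1, mt-Nd6, lower. The largest difference by TPM was that of mt-Nd3, with 6779, 8171 and 4469 TPM in muscle, against 1063, 745 and 686 TPM in adipose tissue, and the smallest was that of mt-Nd6, by 0.18 ± 0.07, a call lost without the third mouse (adjusted p = 0.35). In the tricarboxylic acid cycle 11 of 17 genes were higher and 2 lower by TPM, and all 17 were higher under TMM scaling. Cs, citrate synthase, a common measure of mitochondrial content, was higher by 0.22 ± 0.06 (adjusted p = 0.014, and 0.070 without the third mouse). Dld, shared with other dehydrogenases, and Suclg2, the GTP-forming subunit of succinyl-CoA synthetase, were lower by TPM and higher under TMM scaling. Its ATP-forming counterpart Sucla2 was higher under both scalings, with 254, 275 and 268 TPM in muscle, against 152, 138 and 147 TPM in adipose tissue. Idh3a gave 342, 344 and 359 TPM in muscle and 324, 339 and 348 TPM in adipose tissue, and these overlapped.

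Ppargc1a, the PGC-1 alpha coactivator that drives mitochondrial genes, gave 4.99, 5.83 and 5.43 TPM in muscle, against 1.68, 2.52 and 1.87 TPM in adipose tissue, a log2 difference of 1.09 ± 0.12. Esrra, a nuclear receptor that works with it, was higher by 0.47 and Tfam, a factor for mitochondrial DNA, by 0.45, a call lost without the first mouse (adjusted p = 0.057) or the third (0.066). Of 15 genes of this group 6 were higher and 6 lower by TPM, against 13 higher and 1 lower under TMM scaling. The 1 lower under both was Pparg, the master regulator of adipocytes.

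Adipocyte genes stood at the other end. All 26 genes on the list were lower in muscle by TPM, with a median log2 difference of -4.28, and 25 were lower under TMM scaling. The exception was Agt, angiotensinogen, at 11.8, 9.36 and 10.4 TPM in muscle and 19.8, 14.5 and 15.4 TPM in adipose tissue, which was higher under TMM scaling. Adipoq, adiponectin, gave 113, 89.3 and 101 TPM in muscle, against 3033, 3328 and 3181 TPM in adipose tissue. Lep, leptin, gave 44.6, 32.5 and 37.9 TPM in muscle, against 1328, 1513 and 1449 TPM in adipose tissue. Cidec, which fuses small droplets into large ones, differed most of the list, by -5.21 ± 0.10 (adjusted p = 2.4e-07). Neither hormone's adipose libraries came near its muscle libraries.

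The level of these genes in muscle was low but not nil. Adipocyte genes in muscle stood at a median of 4.90% of their level in adipose tissue, from 2.68% for Lep to 63.6% for Agt, and 22 of 26 were under 10%. Muscle fibre markers in adipose tissue stood at a median of 0.123% of their level in muscle, and Myh4 at 0.0947%. The first mouse had the highest adipocyte markers in muscle and the highest muscle markers in fat: the summed adipocyte markers were 4.61%, 2.91% and 3.44% of the adipose level in mice 1, 2 and 3, and the summed fibre markers 0.250%, 0.183% and 0.207% of the muscle level. In bulk tissue fewer cells of a type and less RNA per cell cannot be told apart, and neither can transcripts of adipocytes lying within the muscle and transcripts of the fibres themselves. The part of such cells in the values that follow was not tested.

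Genes that make fat from glucose were lower in muscle, 15 of 16 by TPM and 13 under TMM scaling. Scd1, which introduces a double bond into new fatty acids, gave 300, 289 and 294 TPM in muscle, against 8776, 10728 and 10124 TPM in adipose tissue. Fasn, fatty acid synthase, gave 80.5, 55.5 and 66.9 TPM in muscle, against 1015, 1230 and 1122 TPM in adipose tissue. Acacb was the 1 member higher under both scalings, at 36.8, 38.4 and 37.3 TPM in muscle, against 23.4, 22.6 and 21.2 TPM in adipose tissue. Its product makes malonyl-CoA at the mitochondrion, where it restrains fat burning, while the product of Acaca serves synthesis in the cytosol and was lower by 3.57. Acacb thus held 91.9% to 92.4% of the pair in muscle and 29.1% to 34.9% in adipose tissue. Me1 and Mlxipl were lower by TPM and higher under TMM scaling.

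In triglyceride synthesis 12 of 13 genes were lower in muscle by TPM and 10 under TMM scaling. Dgat2, which adds the last fatty acid, gave 87.5, 68.0 and 80.4 TPM in muscle, against 1802, 2222 and 2086 TPM in adipose tissue. Gpam, which adds the first at the mitochondrion, was higher under both scalings, with 39.6, 45.1 and 40.9 TPM in muscle, against 20.0, 29.2 and 25.4 TPM in adipose tissue. Gpat3, which adds the first at the endoplasmic reticulum, was lower by 3.00. Among 17 genes of lipolysis and the droplet, 16 were lower by TPM and 14 under TMM scaling. Fitm1, which helps droplets bud in muscle, was the exception, at 342, 317 and 295 TPM in muscle, against 2.92, 2.55 and 3.28 TPM in adipose tissue. Pnpla2, the first lipase of triglyceride breakdown, stood at 15.1% of its adipose level in muscle, against 5.05% for Lipe, the lipase that follows it.

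Genes of fatty acid oxidation differed less, and their balance depended on the scaling. By TPM 4 of 21 genes were higher and 16 lower in muscle, under TMM scaling 12 were higher and 3 lower, and under quantile normalization 10 were higher and 10 lower. Over all genes 13.9% were higher and 73.9% lower by TPM, near the shares of this list. Under TMM scaling they were 38.6% and 37.7%. The 4 higher under both scalings were Cpt1b, Ucp3, Acadl and Acadvl, the last by 0.17, a call lost without the second mouse (adjusted p = 0.17) or the third (0.22). Cpt1b, the muscle form of the gate for fatty acids into mitochondria, gave 178, 176 and 162 TPM in muscle, against 34.0, 27.1 and 33.7 TPM in adipose tissue. Cpt1a, the liver form of that gate, was lower under both scalings, at 5.19, 5.76 and 5.87 TPM in muscle, against 36.0, 40.2 and 38.5 TPM in adipose tissue. Acsl1, which activates fatty acids for either fate, and Echs1 were the others lower under both. Acadvl and Acadl act on the longest chains, and Acadm and Acads, for shorter chains, were lower by TPM by 1.28 and 1.15 and not called under TMM scaling.

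Breakdown of branched-chain amino acids was lower in muscle for 19 of 22 genes by TPM and 12 under TMM scaling, with a median log2 difference of -1.46 by TPM and -0.36 under TMM scaling. Of all genes 73.9% were lower by TPM and 37.7% under TMM scaling. Bcat2, the mitochondrial transaminase that starts it, gave 52.6, 48.1 and 48.1 TPM in muscle, against 167, 192 and 177 TPM in adipose tissue. Bckdhb, a subunit of the dehydrogenase that commits the chain, gave 26.4, 21.6 and 25.2 TPM in muscle, against 267, 254 and 257 TPM in adipose tissue. Bckdk, the kinase that switches that dehydrogenase off, was the 1 gene higher under both scalings, with 124, 116 and 108 TPM in muscle, against 56.3, 62.1 and 56.7 TPM in adipose tissue. The tissues did not overlap for any of these genes.

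Insulin signalling held members on each side. Slc2a4 gave 268, 272 and 267 TPM in muscle, against 118, 130 and 123 TPM in adipose tissue. Irs1, an adaptor of the insulin receptor, was higher by 0.99, as were Tbc1d1, Foxo4 and Rab10. Pik3r1, the regulatory subunit of PI3-kinase, was lower by 2.60. Akt2, the kinase that carries the signal to glucose transport, was lower under both scalings, with 94.2, 89.6 and 87.3 TPM in muscle, against 227, 273 and 251 TPM in adipose tissue. Insr, the receptor, gave 8.16, 9.21 and 8.81 TPM in muscle and 12.3, 20.1 and 18.1 TPM in adipose tissue, lower by TPM and not called under TMM scaling. In all 5 of 21 members were higher and 5 lower under both scalings, against 13.9% and 37.7% of all genes.

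Secreted signals were next. Of 14 adipokines, 12 were lower under both scalings, and Nampt was higher by 0.24, a call lost without the second mouse (adjusted p = 0.062) or the third (0.10). Rarres2, chemerin, gave 160, 132 and 134 TPM in muscle, against 2624, 2457 and 2507 TPM in adipose tissue. Of 10 genes listed as myokines, 5 were higher under both scalings, among them Mstn, myostatin, an inhibitor of muscle growth, with 38.2, 28.6 and 32.8 TPM in muscle, against 0.942, 0.647 and 0.363 TPM in adipose tissue. Igf1, Metrnl and Fgf21 were lower under both. Where 1 TPM was required in all 6 libraries, 4 myokines were tested, none higher and 3 lower by TPM. Fgf21 gave 0.495, 0.528 and 0.345 TPM in muscle, against 6.05, 3.12 and 5.93 TPM in adipose tissue, both low.

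Receptors for such signals went in both directions. Acvr2b, a receptor of myostatin, was higher in muscle by 1.09, and its relative Acvr2a by 1.01. Adipor1, an adiponectin receptor, was higher by 0.43, while Adipor2 was lower, at 52.5, 47.4 and 46.9 TPM in muscle, against 244, 313 and 299 TPM in adipose tissue. The beta-adrenergic receptors Adrb1 and Adrb3 were lower, by 2.66 and 4.78. Npr3, which clears natriuretic peptides, gave 12.0, 9.49 and 10.9 TPM in muscle, against 280, 372 and 352 TPM in adipose tissue. Under both scalings 5 of 19 receptors were higher and 8 lower, against 13.9% and 37.7% of all genes, so the counts do not set receptors apart.

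Genes tied to glucocorticoids matter here because the series tests prednisone, and these mice received none. Nr3c1, the receptor, gave 15.8, 15.9 and 16.5 TPM in muscle, against 29.1, 35.5 and 33.6 TPM in adipose tissue, lower by TPM and not called under TMM scaling. Hsd11b1, which turns inactive glucocorticoids such as prednisone into active ones, gave 14.2, 13.9 and 12.3 TPM in muscle, against 90.2, 103 and 96.3 TPM in adipose tissue, lower under both. H6pd, which supplies the cofactor of that enzyme, was lower by 2.56. Of 26 genes 7 were higher and 8 lower under both scalings, against 13.9% and 37.7% of all genes. Trim63 and Fbxo32, ubiquitin ligases of muscle wasting, were higher by 6.72 and 3.79, and Pdk4, which holds back glucose oxidation, by 3.13. Mt2 and Mt1, metallothioneins, were lower by 4.86 and 3.74.

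Clock genes were measured at 1 time point, so a level reflects the phase as well as the amount. Of 19 genes 8 were higher in muscle and 1, Clock, was lower under both scalings. Dbp and Nr1d1, outputs of the clock with large daily swings, were higher by 2.19 and 2.03, and Nr1d1 varied between mice, at 137, 79.1 and 102 TPM in muscle and 20.7, 28.1 and 25.6 TPM in adipose tissue. Arntl, a core activator, overlapped between tissues. The hour of tissue collection is not given in the labels.

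Hox genes, which record position along the body axis in connective tissue and other mesodermal cells, split by their order in the cluster. Of 39 Hox genes 24 were tested. Among 18 tested genes with paralogue numbers 1 to 8, none was higher and 17 were lower in muscle by TPM, and among 6 with numbers 9 to 13, 5 were higher and none lower. This boundary was drawn after the values were seen. Hoxa9, Hoxa10, Hoxc10 and Hoxc11 had adipose means under 1 TPM and passed the filter through muscle, as Hoxb2 to Hoxb8 did through adipose tissue. With 1 TPM required in all 6 libraries, 13 Hox genes remained, 1 higher and 11 lower. Of untested genes past number 8, Hoxb9 had a lower mean in muscle (0.069 against 0.372 TPM). Hoxa11, Hoxa13, Hoxd10, Hoxd11 and Hoxd13 had a higher one, all under 1 TPM. Under TMM scaling 2 of the 18, Hoxa3 and Hoxa7, were higher and 13 lower, while all 6 of the others were higher. The TPM call of Hoxa3 was lost without the third mouse (adjusted p = 0.071), and that of Hoxa7 without the second (0.065) or the third (0.077). By the same fit 13.9% of all genes were higher and 73.9% lower by TPM.

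Hoxc10 and Hoxc8 lie close together in the cluster and were opposite. Hoxc10 gave 73.5, 69.2 and 70.4 TPM in muscle, against 0.230, 0.358 and 0.575 TPM in adipose tissue. Hoxc8 gave 5.36, 5.68 and 5.36 TPM in muscle, against 67.1, 77.9 and 70.4 TPM in adipose tissue. Hoxc9, which lies between them, was higher by 1.36, with 10.4, 12.3 and 10.4 TPM in muscle and 4.17, 3.27 and 3.59 TPM in adipose tissue. Hoxa9 and Hoxa10 were higher by 3.30 and 3.67, and Hoxb2 to Hoxb8 were all lower under both scalings, each under 1.3 TPM in muscle. The 3 muscle libraries of each of these genes fell on 1 side of the 3 adipose libraries.

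**Figure D3:**
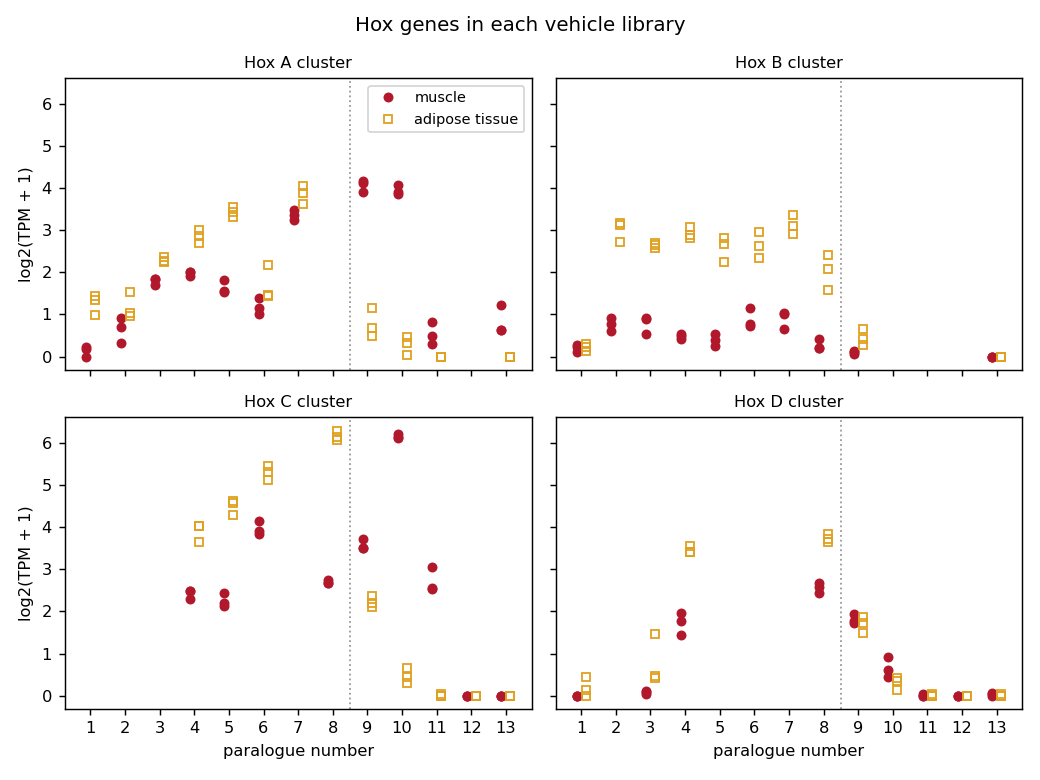
Level of every Hox gene in the table, as log2(TPM + 1), against its paralogue number in the A, B, C and D clusters; filled circles are the 3 muscle libraries and open squares the 3 adipose libraries of vehicle mice. The dotted line stands between numbers 8 and 9: muscle points lie lower to its left for most genes, and for Hoxa9, Hoxa10, Hoxc9, Hoxc10 and Hoxc11 they lie higher to its right.

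Of 12 other factors of regional identity tested, 3 were higher and 5 lower under both scalings, where 13.9% and 37.7% of all genes were. Tbx15, a T-box factor of limb muscle and of some fat depots, gave 103, 107 and 105 TPM in muscle, against 0.354, 0.0833 and 0.203 TPM in adipose tissue. Tcf21, a factor of visceral stroma, was listed at 0 in muscle and gave 6.57, 4.48 and 4.74 TPM in adipose tissue. Wt1, a factor of mesothelium and visceral fat, gave 0 to 0.0943 TPM in muscle and differed by -2.85 ± 0.14 (SE). All 10 mesothelial markers, of the cell sheet that covers visceral fat, were lower under both scalings, as were 37.7% of all genes. Upk3b, Upk1b and Muc16 were at 0 in muscle. The summed mesothelial level was 1.52 to 2.14 TPM in muscle and 65.3 to 100.0 TPM in adipose tissue. At such levels in muscle the markers met the filter chiefly through adipose tissue, which favours this direction.

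Extracellular matrix was lower in muscle for all 33 genes by TPM and for 22 under TMM scaling, where 73.9% and 37.7% of all genes were lower. Sparc, a collagen-binding protein, gave 255, 265 and 254 TPM in muscle, against 3713, 3705 and 3695 TPM in adipose tissue. Among basement membrane collagens Col4a2 was lower by 3.16, and Col5a3 differed most of the collagens, by -3.76. The fibrillar collagens Col1a2 and Col3a1 were lower by TPM, by 1.57 and 1.56, and not called under TMM scaling. Stromal progenitor markers summed to 694 to 901 TPM in muscle and 1955 to 2012 TPM in adipose tissue. Of these markers 11 of 12 were lower by TPM, as were 73.9% of all genes. Under TMM scaling 3 were higher and 3 lower, against 38.6% and 37.7% of all genes. The part of stromal progenitors in the matrix values was not tested. Tendon markers went the other way: all 6 tested were higher under both scalings, and Thbs4 gave 16.1, 22.4 and 19.2 TPM in muscle, against 0.150, 0.441 and 0.177 TPM in adipose tissue.

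Immune genes were lower in muscle. Of 25 macrophage markers 22 were lower under both scalings, and all 25 by TPM. Trem2, a lipid-sensing receptor of macrophages in obese fat, gave 2.39, 3.09 and 1.90 TPM in muscle, against 112, 69.7 and 83.4 TPM in adipose tissue. Itgax, the CD11c integrin of such macrophages, gave 0.243, 0.284 and 0.336 TPM in muscle, against 17.1, 17.1 and 15.7 TPM in adipose tissue. The 3 that were not called under TMM scaling were Cd163 and Lyve1, markers of resident macrophages, and Spp1, osteopontin, a gene of macrophages in obese fat, at -1.18, -0.92 and -0.90 by TPM. The summed marker level was 281 to 405 TPM in muscle and 2772 to 3775 TPM in adipose tissue.

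All 17 complement genes tested were lower in muscle under both scalings. C1qa, C1qb and C1qc, which macrophages make, and C3 and Cfb, which adipocytes also make, were lower by 2.78 to 4.30. Several genes named for the size of their difference encode acute-phase or secreted proteins. Hp, haptoglobin, gave 105, 85.1 and 90.2 TPM in muscle, against 4415, 4365 and 4357 TPM in adipose tissue. Saa3 gave 0.592, 2.21 and 1.70 TPM in muscle, against 130, 128 and 146 TPM in adipose tissue. Slpi, an inhibitor of neutrophil proteases, gave 0.177, 0.236 and 0.293 TPM in muscle, against 138, 97.3 and 115 TPM in adipose tissue, a log2 difference of -6.56. Lcn2, Orm2 and Orm3 were also among the 12 genes lowest in muscle, all at about 1 TPM or less there. Rps12l1, at 0 in muscle and 307 to 365 TPM in adipose tissue, is annotated as a processed pseudogene of a ribosomal protein and is uncertain, since its reads can belong to near-identical copies.

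All 15 endothelial markers were lower by TPM, as were 73.9% of all genes, while under TMM scaling 7 were lower and 3 higher, against 37.7% and 38.6% of all genes. Pecam1 gave 23.2, 24.7 and 24.2 TPM in muscle, against 76.7, 74.8 and 74.7 TPM in adipose tissue. Globin and other blood genes summed to 1755 to 1972 TPM in muscle and 5135 to 9097 TPM in adipose tissue, highest in the first mouse, which also had the highest macrophage sum in fat. The part of blood in the immune values was not tested.

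Translation and protein turnover depended on the scaling. Of 76 ribosomal protein genes none was higher and 75 were lower in muscle by TPM, while 51 were higher and 3 lower under TMM scaling and 10 were higher and 47 lower under quantile normalization. Their median log2 difference by TPM was -0.74, against -0.93 for all genes. Of 31 proteasome genes 4 were higher and 18 lower by TPM, and 30 were higher and none lower under TMM scaling. The data thus give no direction for these groups without a choice of scaling.

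Of 15 genes used as references for qPCR, 3 were higher and 7 lower in muscle under both scalings, shares not far from the 13.9% and 37.7% of all genes. Gapdh, a glycolytic enzyme, gave 3698, 3494 and 3117 TPM in muscle, against 621, 593 and 590 TPM in adipose tissue. B2m, part of MHC class I, gave 328, 318 and 322 TPM in muscle, against 4615, 4559 and 4792 TPM in adipose tissue. Tbp and Polr2a were lower by TPM, by 0.93 and 1.03, and within 0.10 of 0 under TMM scaling. Genes whose 95% interval by TPM lay within 0.5 of 0 numbered 1232 (9.11%).

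**Figure D4:**
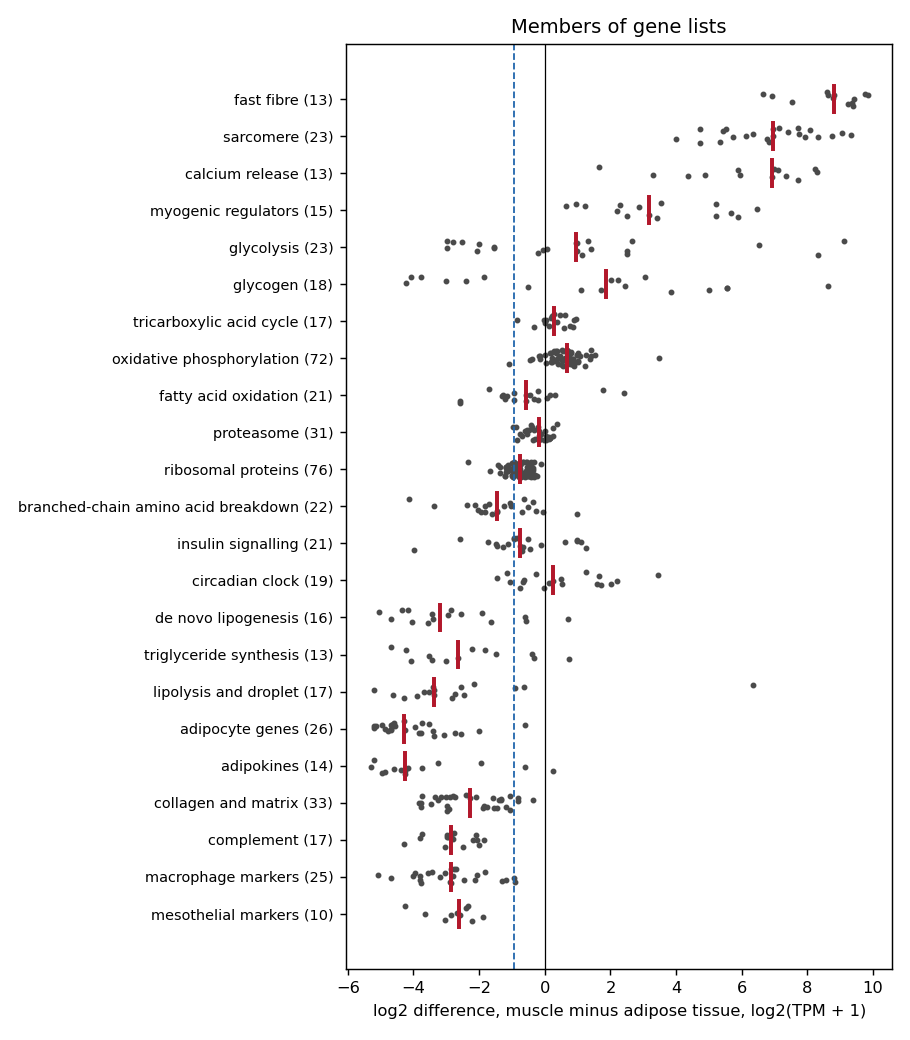
Log2 difference of each tested member (dots) of 23 gene lists, muscle minus adipose tissue on the log2(TPM + 1) scale in 3 vehicle mice, with the list's median as a red bar and the number tested in brackets. The black line marks 0 and the dashed line the median of all genes, -0.93; contractile lists lie far to the right, lipid and adipokine lists to the left, and ribosomal proteins around the dashed line.

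The leading transcript of a gene also differed between tissues for some. Among 3891 genes with several transcripts and 10 TPM or more in all 6 libraries, 213 (5.47%) had a different leading transcript in each tissue. The leader was taken from the mean share over the 3 mice. A gene was counted if every library held more of its own tissue's leader than of the other tissue's. Whether that transcript also led in each single library was not tested. Shares come from the authors' estimates of each transcript's abundance, and annotated transcripts that differ little are hard to tell apart. The 6 genes with the largest change were Twf2, Pdlim5, Asph, Slc25a3, Rabep2 and Tpm1. Capzb and Mfn2 are added here, chosen after their values were seen. Transcript models are those of GENCODE M21, in which 94.7% of the transcript identifiers and versions of the table are found.

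Slc25a3 encodes the carrier that brings phosphate into mitochondria for ATP synthesis, and its transcripts are known to carry 1 of a pair of exons that exclude each other. The gene's TPM was higher in muscle by 0.72, and its leading transcript was another. Transcript ENSMUST00000170810.7 made up 90.5%, 90.0% and 90.4% of the gene in muscle, against 1.72%, 0.621% and 1.27% in adipose tissue. Transcript ENSMUST00000076694.12 made up 4.78%, 4.25% and 4.80% in muscle, against 71.5%, 68.5% and 66.1% in adipose tissue. In the annotation they differ in coding exon 3, of 125 bases in the muscle transcript (GRCm38 chr10:91122207-91122331, minus strand) and 122 bases in the adipose one (chr10:91121922-91122043, minus strand). The exons, read 5′ to 3′ on the coding strand, are shown because they are the only coding exons that differ between the leading transcripts, with bases that differ in a global alignment in capitals.
Slc25a3 exon 3, muscle: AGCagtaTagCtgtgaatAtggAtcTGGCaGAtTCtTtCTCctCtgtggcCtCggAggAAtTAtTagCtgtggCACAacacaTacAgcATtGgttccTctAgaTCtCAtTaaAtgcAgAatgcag
Slc25a3 exon 3, adipose: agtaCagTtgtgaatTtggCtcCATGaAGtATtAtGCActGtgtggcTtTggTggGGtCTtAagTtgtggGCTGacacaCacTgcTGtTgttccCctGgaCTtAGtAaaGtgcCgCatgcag
The exons share 77 of 125 aligned positions (61.6%), and the encoded proteins have 358 residues for the muscle transcript and 357 for the adipose one.

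Capzb encodes the beta subunit of the protein that caps actin filaments, at the Z-line of the sarcomere in 1 form and at the cell cortex in another. Its muscle transcript made up 91.4%, 84.0% and 89.3% of the gene in muscle, against a mean of 14.1% in adipose tissue. The adipose transcript made up 75.5%, 79.8% and 77.3% of the gene in adipose tissue and at most 8.92% in muscle. Their only different coding exon is exon 9, with 100 coding bases in the muscle transcript (GRCm38 chr4:139288861-139288960, plus strand) and 85 in the adipose one (chr4:139291003-139291087, plus strand). These exons are shown because they hold the sequence in which the leading forms differ, near the end of the protein.
Capzb exon 9, muscle: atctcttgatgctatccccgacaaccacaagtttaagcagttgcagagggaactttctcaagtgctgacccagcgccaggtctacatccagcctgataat
Capzb exon 9, adipose: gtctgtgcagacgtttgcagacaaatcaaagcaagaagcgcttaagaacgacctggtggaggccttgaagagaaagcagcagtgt
The forms have 277 residues for the muscle transcript and 272 for the adipose one, and the total TPM of the gene was lower in muscle by 0.58, a direction that TMM scaling turned.

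The other genes differed in coding length, in the start or outside the coding sequence. Asph led in muscle with a model of 207 residues, at 89.1% to 90.9% of the gene in muscle and 0.146% to 0.377% in adipose tissue, where a model of 741 residues led at 20.5% to 31.6%. The gene encodes both an enzyme that hydroxylates aspartate and, from shorter transcripts, junctin, a protein of the calcium release complex. Pdlim5, a Z-line scaffold whose short forms lack the LIM domains, led in muscle with a model of 214 residues, at 94.9% to 96.3% in muscle and 3.10% to 7.62% in adipose tissue, where a model of 591 residues led. Tpm1 led with 284 residues in muscle and 248 in adipose tissue, and the muscle transcript held 97.3% to 97.6% of the gene in muscle and 10.9% to 17.3% in adipose tissue. Long tropomyosins are those of sarcomeres, and shorter ones serve the cytoskeleton.

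Twf2, which encodes an actin monomer binding protein with a known muscle form, led with different transcripts of nearly equal coding length, 347 residues in muscle and 349 in adipose tissue. Its muscle transcript was listed at 0% of the gene in the first and second adipose libraries and at 6.24% in the third. Mfn2, which fuses mitochondria, led with different transcripts of the same coding length, 757 residues, and with the same coding exons, so that they differ only outside the coding sequence. In Rabep2 the transcript that led in muscle, at 85.8% to 87.2%, is annotated as a retained intron without a coding sequence.

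**Figure D5:**
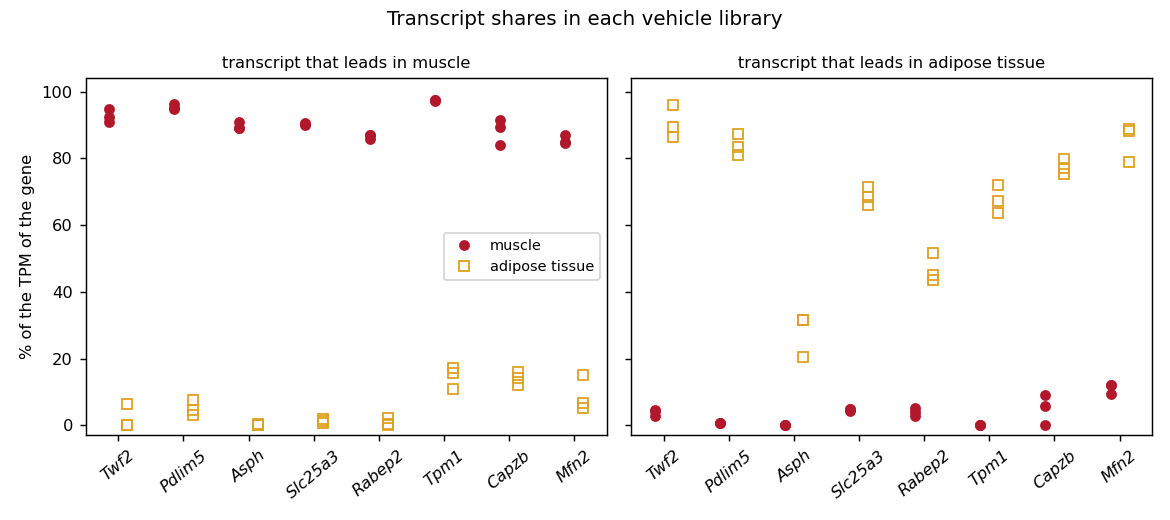
Share of the gene's TPM in the transcript that leads in muscle (left) and in the one that leads in adipose tissue (right), in percent, for 8 genes; filled circles are the 3 muscle libraries and open squares the 3 adipose libraries of vehicle mice. Muscle points lie between 84.0% and 97.6% on the left and no higher than 12.1% on the right.

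Mice given prednisone, which took no part in these calls, showed the same directions for most genes. Of the 1881 genes higher in muscle, 84.9% were higher in each of the 6 prednisone mice, and of the 5098 lower under both scalings, 99.2% were lower in each. These mice differ in treatment from the vehicle mice. The signs were taken by TPM, by which 73.9% of all genes were lower in muscle in vehicle mice, and this favours agreement for lower genes. No such share was computed over all tested genes, so these shares do not measure how general a direction was.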

How the data were processed

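RNA was measured in quadriceps muscle and white adipose tissue of 3 vehicle mice. Trizol and RNeasy gave the RNA, and a stranded mRNA kit the libraries, per the labels. The deposited values are TPM per transcript, 105129 in all, which the authors scaled to a fixed sum in each library. Per the submitters' processing notes, Trimmomatic, HISAT2 and kallisto were used with mm10, without versions or roles. TPM was summed per gene symbol, and 37 genes shared all values with another gene.

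Tissues were compared on log2(TPM + 1) by limma 3.58.1 under R 4.3.3, using lmFit and a trended eBayes, and the mouse entered as a block. Calls were made at a Benjamini-Hochberg adjusted p of 0.05 over 13525 genes. The pairing is that of the labels, which give each mouse a muscle and a fat sample, and residuals of the same mouse correlated at 0.030, -0.008 and 0.009. The fit had 2 residual degrees of freedom and 5.96 with those borrowed across genes. TMM factors were computed with own code without weights, and figures with matplotlib 3.10.9 in Python 3.11.15. In simulated data with 13525 genes, the fit found 81% of 200 genes changed by 1 on the log2 scale, with 5 false calls, and 0% of 200 changed by 0.5. Only those 200 genes differed there, while 87.8% of genes were called in the data. The adjusted p is stricter where few genes differ, so these rates do not carry over to the real comparison, in which smaller differences were called.

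Members, gene lists and pairs were chosen with earlier results of these data known. Named genes were the 12 largest differences in each direction, averaging at least 5 TPM, and the largest of each list. Also named were the isozyme pairs, reference genes, abundant genes near 0, the genes that varied most between mice (mean of 20 TPM or more) and the largest transcript changes, and others chosen after their values were seen. Predicted genes were left out. Alternatives were other scalings, pseudocounts, filters and priors, a minimum difference, all 18 libraries in 1 fit, no block, and each mouse left out. Some genes that the rule names are not reported here.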

Additional observations from a re-analysis of the deposited data

How the results depend on the processing

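With 3 libraries a tissue and no counts, the precision of low genes is unknown, and the depot, the hour and the order of collection are not given. By TPM 1881 genes were higher and 9995 lower. TMM scaling gave 5222 and 5098, quantile normalization 4664 and 5493, and a test against a minimum log2 difference of 1 gave 846 and 4681. Leaving out 1 mouse gave 1723 to 1812 higher and 9413 to 10025 lower. Without the block for the mouse there were 1904 and 10005, and of the named genes the pairing changed only the call of Hspa1a (adjusted p = 0.074 without the block). The other settings stayed within 1.5 times of both counts. Leading transcripts differed in 213 genes at 10 TPM, 298 at 5 TPM and 124 at 20 TPM. Of 189 named genes 129 kept direction and call under every alternative that tested them, and 22 changed sign under some alternative. Under TMM scaling the log2 difference became 0.30 for Slc2a1, 0.47 for Plin5, 0.84 for Vegfb, 0.03 for Ndufb3, 0.68 for Ndufc2, 0.73 for Ndufa7, 0.96 for Ndufs5, 0.79 for Dld, 0.25 for Suclg2, 0.45 for Agt, 0.52 for Me1, 0.52 for Mlxipl, 0.19 for Insr, 0.10 for Nr3c1, 0.36 for Hoxa3, 0.55 for Hoxa7, 0.026 for Lyve1, 0.10 for Tbp, 0.022 for Polr2a, 0.54 for Capzb and 0.27 for Cma1. Under quantile normalization it became 0.29 for Slc2a1, 0.18 for Plin5, 0.43 for Vegfb, 0.089 for Ndufc2, 0.038 for Ndufa7, 0.28 for Ndufs5, -0.68 for mt-Nd6, 0.44 for Dld, 0.33 for Agt, 0.17 for Me1, 0.24 for Mlxipl, 0.089 for Insr, 0.40 for Hoxa3, 0.46 for Hoxa7, 0.036 for Lyve1, 0.029 for Tbp, 0.16 for Capzb and 0.11 for Cma1. Without the mitochondrial genome it became 0.0087 for Vegfb and 0.13 for Ndufs5. These settings change only how a library is scaled, which moved the median of all genes to 0.01, -0.08 and -0.71.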

Other observations

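Mice differed little within a tissue. Over 2893 genes with a mean of 20 TPM or more in both tissues, the median SD of log2(TPM + 1) was 0.0722 in muscle and 0.0902 in adipose tissue. The inducible heat shock genes Hspa1b and Hspa1a varied most in muscle: Hspa1b gave 1.90, 129 and 56.1 TPM in muscle and 4.05, 11.1 and 9.83 TPM in adipose tissue in mice 1, 2 and 3. Hspa1a gave 2.84, 99.3 and 44.1 TPM in muscle and 1.86, 6.60 and 6.33 TPM in adipose tissue. In both genes the first mouse was lowest and the second highest in each tissue. Csrp3, a Z-line protein, gave 25.5, 84.4 and 47.3 TPM in muscle in the same order and was at 0, 0 and 0.109 TPM in adipose tissue.

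Apobec3, an antiviral deaminase, varied most in adipose tissue, with 6.24 TPM in the first mouse and 12.8 TPM or more in the others in muscle, and 38.7, 312 and 218 TPM in adipose tissue. Chd9 followed a like order, with 38.3, 54.1 and 50.1 TPM in muscle and 101, 251 and 218 TPM in adipose tissue. Ucp1, the uncoupling protein of brown and beige adipocytes, went the other way, with 38.1, 8.28 and 23.2 TPM in muscle and 113, 57.0 and 70.0 TPM in adipose tissue, highest in the first mouse in each tissue. Cidea, another marker of such cells, gave 19.2, 6.62 and 13.7 TPM in muscle and 88.1, 67.6 and 74.9 TPM in adipose tissue. Groups of 3 were not tested for outliers, and these genes were picked for their spread.

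Mast cell and lymphocyte genes were low in both tissues. Of 6 mast cell markers tested all were lower in muscle by TPM and 2 under TMM scaling, where 73.9% and 37.7% of all genes were lower, and Cma1 gave 10.5, 14.9 and 12.7 TPM in muscle, against 31.9, 18.2 and 19.8 TPM in adipose tissue. Of 7 tested T and B lymphocyte markers all were lower by TPM and 6 under TMM scaling, from a summed 3.34 to 3.92 TPM in muscle and 27.0 to 37.7 TPM in adipose tissue.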
